A study of Mus musculus with 12 samples.

Results

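The genes described here are 32 neuropeptide precursors, granins, peptide-processing enzymes and secreted synaptic organisers, taken by symbol from a table of estimated RNA counts that lists 21738 distinct symbols. All 32 were found, each on 1 row, and 29 passed the filter on low counts that kept 11693 genes for testing. Poly(A) RNA of whole adult mouse cortex had been sequenced for Tet1 KO, Tet1 HxD and Tet1 WT, with 4 libraries each. Tet1 encodes a dioxygenase that oxidises 5-methylcytosine, and HxD shares its name with the iron-binding motif of these enzymes. The labels used here describe neither allele further, give no strain, sex or age beyond adult, and do not state whether each library is a separate animal. The p-values therefore measure the spread between libraries, which may be technical.

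Peptide-secreting neurons make long precursor proteins, which granins help to pack into dense-core vesicles. Inside the vesicle, prohormone convertases cut the precursor at pairs of basic residues, a carboxypeptidase trims the cut ends, and an amidating enzyme finishes many of the peptides. In the cortex, many neuropeptides are made by GABAergic interneurons, and excitatory neurons make some, among them Cck and Adcyap1. Enkephalin and dynorphin precursors are abundant in the striatum, which lies directly under the cortex. Neurexophilins and cerebellins are secreted too, and they bind neurexins at synapses.

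The estimated counts of a library came to 5791642 to 9535409 in KO, 7767787 to 10347432 in HxD and 8310783 to 10915574 in WT, and the 32 genes took 0.894% to 1.03% of them. Tet1 itself was listed at 0 in all KO and all WT libraries, with 1, 0, 63 and 67 counts in HxD 1 to 4, so it cannot check the knockout label. Gapdh, a glycolytic gene that every cell uses, was at 0 in all 12 libraries, so a listed 0 is no evidence of silence. Markers of neighbouring tissue varied widely between libraries. The summed level of the 10 tested striatal projection neuron markers (of 15) was 269 to 405 CPM (counts scaled to a common library total) in KO, 202 to 1058 in HxD and 330 to 648 in WT, with HxD 3 highest and HxD 4 lowest. Of these 15 genes, Pde10a, Six3 and Isl1 were at 0 throughout KO, and Six3 was at 0 throughout HxD and WT. Markers of excitatory cortical neurons were present, at a summed level of 2421 to 2836 CPM in KO, 2581 to 3549 in HxD and 2769 to 3929 in WT. Among them Rorb and Foxp2 were listed at 0 throughout KO, Foxp2 throughout HxD and Rorb throughout WT. Interneuron markers summed to 2319 to 2849 CPM in KO, 2444.5 to 2758 in HxD and 2224 to 2680 in WT, with Reln at 0 throughout KO. Choroid plexus markers summed to 3.64 to 9.49 CPM in KO, 2.73 to 269 in HxD (highest in HxD 1) and 4.00 to 35.0 in WT. Oligodendrocyte markers summed to 3012 to 3559.5 CPM in KO, 1357 to 3980 in HxD and 1865 to 4441 in WT. The 8 immediate early genes, which neuronal activity induces, summed to 1230 to 2412.5 CPM in KO, 495 to 2773 in HxD and 491 to 1429 in WT. Libraries 1 and 3 also differed from libraries 2 and 4 in HxD and WT alike, a split seen in the data that no label names. After centring each genotype, every HxD library correlated best with a WT library of its own set, with r from -0.014 to 0.078 within a set and from -0.12 to -0.011 across sets. In both genotypes, 5 of the 29 genes (Chgb, Scg5, Pcsk2, Npy and Cbln2) were higher in libraries 2 and 4 without overlap, beside 8.04% of all genes tested, and 3 (Cpe, Nts and Nppc) were lower, beside 7.83%. KO libraries parted otherwise. KO 1 and 4 both lay below KO 2 and 3 for genes such as Scg3, Scg5, Pam, Grp and Nxph3. They both lay above for others, among them Chga, Vgf, Npy, Penk, Cbln1 and Cbln4. These are examples picked out after their values were seen, and others of the 29, such as Cpe and Cck, parted likewise. Neither their number nor the share over all genes was computed, so this split is not read as a trait of the group. KO 1 and 4 had the lowest totals of all libraries, 5853428 and 5791642, and the part of depth was not tested.

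No gene of the group passed edgeR's quasi-likelihood test in any comparison (adjusted p below 0.05 over all 11693 genes). In HxD against WT, 0 of 29 were called, beside 0.898% of all genes tested, and 3, all higher, had an unadjusted p below 0.05, beside 4.05% (1.90% higher, 2.15% lower). In KO against WT, 0 were called, beside 0.154%, and 1, lower, had an unadjusted p below 0.05, beside 9.48% (4.22% higher, 5.26% lower). In KO against HxD, 0 were called, beside 1.02%, and 4, 1 higher and 3 lower, had an unadjusted p below 0.05, beside 11.6% (5.67% higher, 5.94% lower). The libraries of both genotypes did not overlap for 1 gene in HxD against WT, which was higher, beside 3.48% of all genes tested (1.76% higher, 1.72% lower). In KO against WT they did not overlap for 3, 1 higher and 2 lower, beside 7.20% (3.25% higher, 3.95% lower). In KO against HxD they overlapped for all 29, beside 7.59% of all genes without overlap (3.97% higher, 3.62% lower). limma-voom also called 0 in each comparison, and the DESeq2 Wald test called 0, 0 and 1, the enkephalin precursor Penk in KO against HxD.

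The median log2 fold change of the 29 genes was 0.061 in HxD against WT, 0.075 in KO against WT and -0.069 in KO against HxD, beside medians of 0.0067, 0.0060 and 0.0018 over all genes tested. Above the second-named genotype stood 17, 17 and 13 of the 29. These values are descriptions, and the comparisons share libraries. Over the 27 genes with no library at 0, the 95% confidence interval of the fold change stayed within 1 log2 unit either way for 16 in HxD against WT, 17 in KO against WT and 15 in KO against HxD. The wider intervals included those of Nts, Cartpt, Nmb, Grp, Adcyap1, Cbln1 and Cbln4 in every comparison. For these genes a change of that size cannot be told from none here. The interval of Penk was also wider in every comparison, while those of the scarce precursors Pnoc and Nppc stayed within 1 log2 unit.

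**Figure D1:**
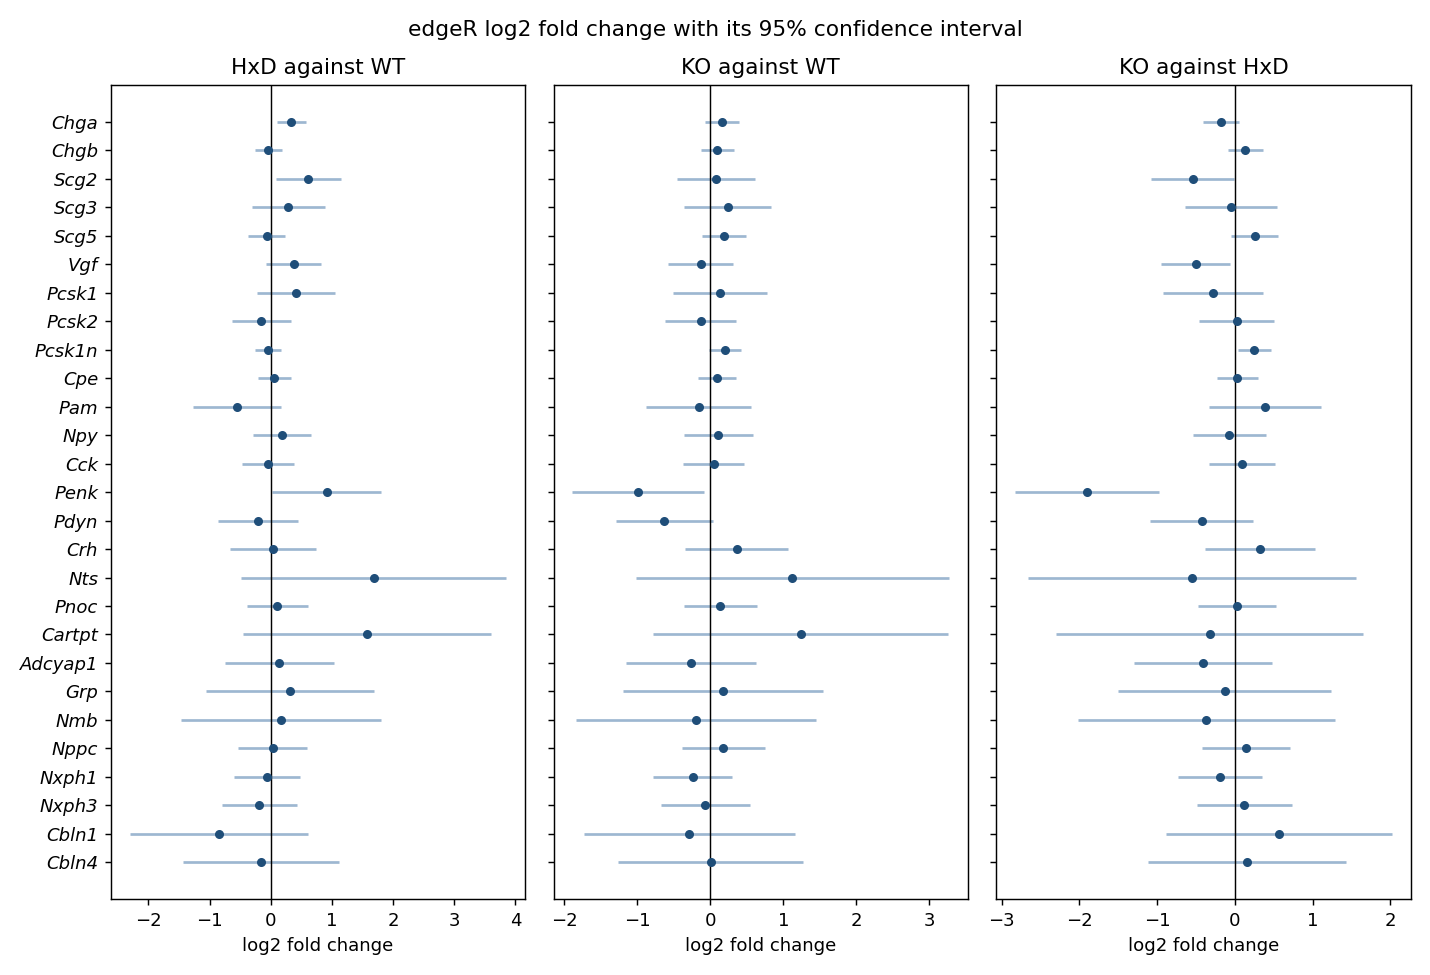
Log2 fold change from edgeR (points) and 95% confidence interval derived from its F statistic (bars) for the 27 tested genes with no library at 0, for each pair of genotypes. Penk in KO against HxD lies farthest from 0 among intervals that do not cross it, at -1.90, and the intervals of Nts and Cartpt are the widest.

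Levels were compared per kilobase of each gene's longest annotated transcript. The carboxypeptidase Cpe stood far above the rest, at 2051, 2009 and 1926 CPM per kilobase on average in KO, HxD and WT. Cck followed at 729, 686 and 707, then the convertase inhibitor Pcsk1n at 610.0, 514 and 531. Below these came the granins Scg5 and Chgb and the precursor Npy. Scarcest per kilobase were Trh and Cartpt. Cpe lay at percentile 99.97 and Cck at percentile 99.7 of the tested genes by level per kilobase, while Cartpt lay at percentile 28.6.

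**Figure D2:**
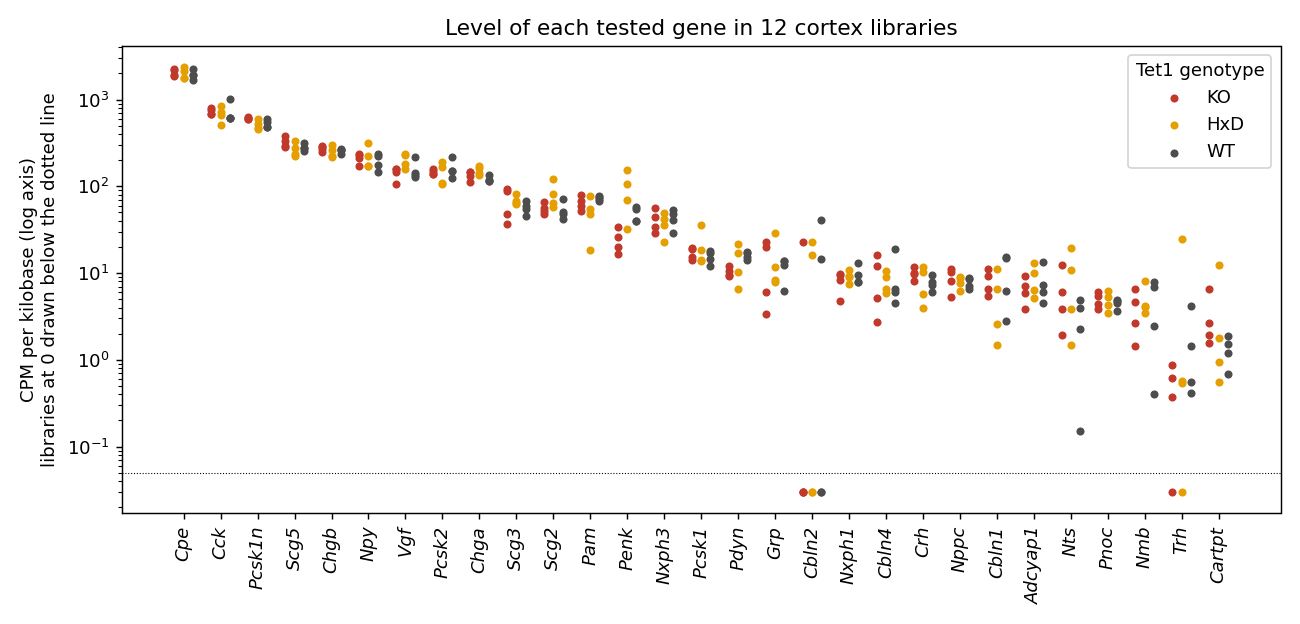
CPM per kilobase of transcript (log axis) of the 29 tested genes in each of 12 libraries, sorted by mean and coloured by genotype (KO, HxD, WT); libraries at 0 are drawn below the dotted line. Cpe tops the order, the 3 genotypes lie together for most abundant genes, and Penk, Nts, Trh and Cbln2 spread widely.

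Granins are acidic secretory proteins that aggregate as vesicles form, and several are themselves cut into peptides. Chga, chromogranin A, stood at 302, 323, 253 and 269.5 CPM in HxD 1 to 4 against 217, 253, 222 and 217 CPM in WT 1 to 4. Every HxD library lay above every WT library, though HxD 3 only barely above WT 2. It is the 1 gene whose libraries did not overlap in this comparison. The log2 fold change was 0.34 ± 0.11 (SE), with a 95% interval of 0.10 to 0.57, and it did not pass (adjusted p = 0.585). KO libraries, at 278, 214, 251 and 275 CPM, overlapped both other genotypes.

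Scg2, secretogranin II, held 144, 204, 306 and 160.2 CPM in HxD 1 to 4 against 105, 179.95, 121 and 126 CPM in WT 1 to 4. HxD 3 alone exceeded all other libraries by a wide margin, HxD 2 also lay above WT, and HxD 1 and 4 lay within the WT range. Its log2 fold change of 0.61 ± 0.24 had an adjusted p of 0.999, and without HxD 3 the value was 0.34. In KO, at 122, 141, 165 and 132 CPM, Scg2 was close to WT, and KO against HxD gave -0.54 ± 0.24 (adjusted p = 0.428), or -0.28 without HxD 3. Between libraries 2 and 4 of each genotype the difference of mean log2 levels in HxD against WT was 0.26, and between libraries 1 and 3 it was 0.90. HxD 3 also had the most striatal marker RNA, and with the striatal score as covariate the log2 fold change was 0.51 in HxD against WT and -0.32 in KO against HxD (adjusted p = 0.825). Across the 12 libraries Scg2 gave r = 0.469 and rho = 0.035 with that score (permutation p = 0.127 and 0.921, adjusted p = 0.394 and 0.937).

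Vgf, a granin-like precursor induced by neurotrophins and activity, stood at 448, 299, 409 and 448 CPM in KO against 509, 662, 448 and 657 CPM in HxD. The highest KO library lay just above the lowest HxD library, so the groups overlapped by a small margin. WT libraries held 401, 612, 378 and 367 CPM and spanned most of both ranges. KO against HxD gave a log2 fold change of -0.50 ± 0.20 (adjusted p = 0.375). Scg5, the 7B2 chaperone that keeps the convertase Pcsk2 inactive until it reaches the vesicle, was the most abundant granin per kilobase. Its libraries held 340.0, 459.7, 397 and 353 CPM in KO, 271, 400.1, 287 and 337 in HxD, and 309, 334, 331 and 382 in WT. These groups overlapped throughout, with log2 fold changes from -0.07 to 0.26.

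Chgb, chromogranin B, averaged 749 ± 50.5 CPM in KO, 683 ± 101 in HxD and 701 ± 38.6 in WT (SD, n = 4 each). Its interval against WT was narrow, from -0.13 to 0.32 in KO and from -0.26 to 0.19 in HxD on the log2 scale. Scg3, which anchors granin aggregates to the vesicle membrane, averaged 159 ± 67.1 CPM in KO, 165 ± 19.5 in HxD and 135 ± 21.4 in WT. The KO libraries parted into a lower pair (KO 1 and 4, at 115 and 88.3 CPM) and a higher pair (KO 2 and 3, at 212 and 221 CPM). Over the 6 granins the median log2 fold change was 0.31 in HxD against WT, 0.13 in KO against WT and -0.11 in KO against HxD.

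Several genes of regulated secretion are textbook targets of the factor CREB, which binds the cAMP response element. RefSeq promoter windows (GRCm38.p6, from 250 bases before to 50 after each start) were matched for 23 of the 32 genes in 26 windows. The other 9 genes (Vgf, Cpe, Penk, Crh, Pnoc, Grp, Nxph3, Cbln1 and Cbln2) had no window and were not searched. The palindrome TGACGTCA, which reads alike on both strands, occurred in 4 of these windows (15.4%), beside 1.79% of all 32851 windows. Those 4 are printed to show the element's place in genes of different roles: a pair of granins, a convertase and a precursor. Capitals mark the palindrome, which begins 72 bases before the start in Chgb, 68 in Scg2, 78 in Pcsk1 and 112 in Cartpt.
Chgb chr2:132781392-132781691 (plus strand): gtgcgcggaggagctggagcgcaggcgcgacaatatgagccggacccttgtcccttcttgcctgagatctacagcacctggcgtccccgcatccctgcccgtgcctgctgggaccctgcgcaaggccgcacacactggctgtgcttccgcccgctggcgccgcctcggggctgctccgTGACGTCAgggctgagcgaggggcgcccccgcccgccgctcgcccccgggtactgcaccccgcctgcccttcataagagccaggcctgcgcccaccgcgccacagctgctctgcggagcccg
Scg2 chr1:79439977-79440276 (minus strand): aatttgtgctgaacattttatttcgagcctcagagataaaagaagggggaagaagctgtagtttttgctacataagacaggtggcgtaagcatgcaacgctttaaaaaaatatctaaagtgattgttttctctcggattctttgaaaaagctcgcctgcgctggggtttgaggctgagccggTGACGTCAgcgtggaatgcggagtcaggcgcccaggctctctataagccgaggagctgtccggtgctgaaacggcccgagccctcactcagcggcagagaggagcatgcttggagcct
Pcsk1 chr13:75089607-75089906 (plus strand): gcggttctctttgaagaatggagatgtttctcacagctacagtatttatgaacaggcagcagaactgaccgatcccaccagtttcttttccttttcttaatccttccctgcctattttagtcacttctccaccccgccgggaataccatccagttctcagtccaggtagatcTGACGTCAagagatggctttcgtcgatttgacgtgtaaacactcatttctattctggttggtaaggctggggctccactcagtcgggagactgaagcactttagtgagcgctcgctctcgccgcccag
Cartpt chr13:99900634-99900933 (minus strand): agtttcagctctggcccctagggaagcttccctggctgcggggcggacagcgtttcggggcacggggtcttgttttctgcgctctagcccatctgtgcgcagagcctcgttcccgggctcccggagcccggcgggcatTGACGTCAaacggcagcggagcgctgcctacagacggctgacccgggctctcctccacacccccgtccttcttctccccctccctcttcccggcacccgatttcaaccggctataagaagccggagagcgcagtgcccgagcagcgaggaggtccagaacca
The shorter half-element TGACG, searched on both strands and contained in the palindrome, occurred in 15 of the 26 windows (57.7%), beside 20.8% of all windows. A further activity element, TGACTCA for AP-1, occurred in 2 (7.69%), beside 5.2% of all windows. A match describes these letters only and shows no binding.

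Among the processing genes, the proSAAS gene Pcsk1n encodes an inhibitor of the convertase PC1/3. It held 1343, 1363, 1326 and 1318.5 CPM in KO 1 to 4 against 1057, 1069, 1224 and 1305 CPM in WT 1 to 4. All KO libraries lay above all WT libraries, by a small step over WT 4. In HxD it held 1041, 1325, 1131 and 1009 CPM, and HxD 2 overlapped KO. The log2 fold change was 0.20 ± 0.10 in KO against WT and 0.25 ± 0.10 in KO against HxD, with adjusted p of 0.557 and 0.363. With Penk and Pdyn, it is 1 of the 3 genes without overlap between KO and WT.

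Cpe, carboxypeptidase E, removes the basic residues that the convertases leave. Its libraries held 3917, 4754, 4666 and 4032 CPM in KO, 4999, 3766, 4497 and 3753 in HxD, and 4050.3, 3537, 4703 and 4019 in WT. The groups overlapped fully, and the 95% interval of the log2 fold change was -0.18 to 0.36 in KO against WT and -0.20 to 0.33 in HxD against WT. Pcsk2, the second convertase, averaged 691 ± 49.0 CPM in KO, 679.7 ± 202 in HxD and 757 ± 196 in WT. Pam, which amidates the carboxyl end of peptides, averaged 266 ± 50.5 CPM in KO, 204 ± 98.6 in HxD and 298 ± 17.3 in WT, and HxD 1 alone lay below 100 CPM, at 76.4. Its log2 fold change in HxD against WT was -0.55 ± 0.33 (adjusted p = 0.999), with -0.28 without HxD 1 and -0.84 without HxD 4.

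Pcsk1, the convertase PC1/3, was examined after its values were seen. It held 96.9, 95.5, 77.7 and 70.6 CPM in KO 1 to 4, 68.8, 93.1, 71.5 and 181 in HxD 1 to 4, and 86.5, 90.2, 73.8 and 60.25 in WT 1 to 4. HxD 4 stood far above the other 11 libraries, which overlapped. HxD 4 also had the highest immediate early gene score of all libraries, 1.18, and WT 3 and HxD 1 the lowest, -1.37 and -1.33 (the score is the median over the 8 genes of log2 CPM centred on all libraries). Across the 12 libraries Pcsk1 followed this score, with Pearson r = 0.731 and Spearman rho = 0.846 (permutation p = 0.0018 and 9.6e-04). Of 58 such relations computed, 29 genes against 2 scores, this one kept an adjusted p of 0.0348 for r and 0.0278 for rho. The permutations shuffled libraries freely and did not allow for genotype or for the split of libraries 1 and 3 from 2 and 4. Without WT 3 and HxD 1, the libraries farthest from the median score, r was 0.794, and with each genotype centred on its own mean it was 0.795. Without HxD 4, where Pcsk1 was highest, r was 0.80 and rho 0.80 over 11 libraries (permutation p = 0.00382 and 0.00444, not adjusted). None of the other 28 genes passed with this score. The genotype comparisons of Pcsk1 gave 0.42 ± 0.29 in HxD against WT and 0.13 ± 0.29 in KO against WT. Without HxD 4 the value in HxD against WT was -0.0014.

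**Figure D3:**
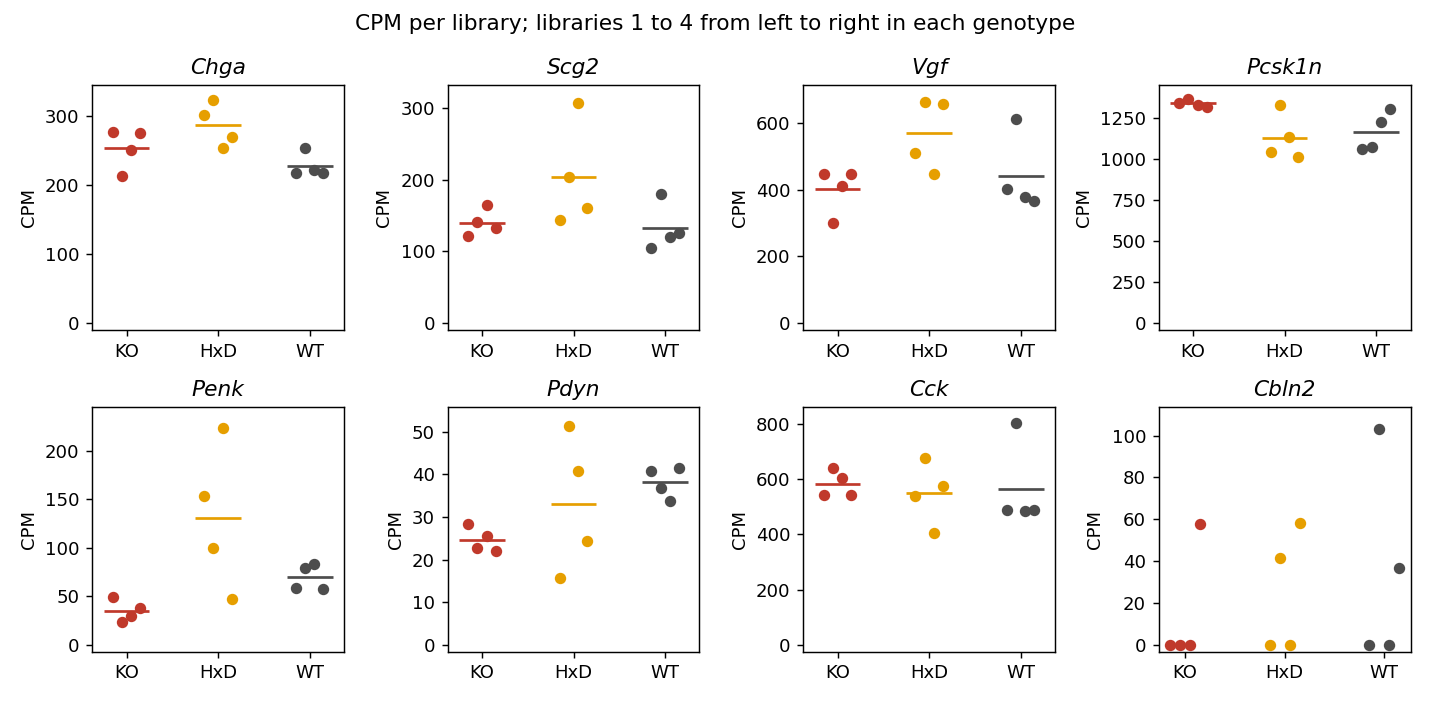
CPM of 8 genes in each library (points, replicates 1 to 4 from left to right) and the mean of each genotype (lines, left out for Cbln2), for KO, HxD and WT. Chga in HxD lies above all WT points, Penk and Pdyn in KO lie below all WT points, and Cbln2 alternates between 0 and 36.6 to 103 CPM.

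Of the precursors, Penk, which encodes the enkephalins, had the smallest p of the 29 genes, in KO against HxD. Its level was 49.3, 23.9, 29.3 and 37.8 CPM in KO 1 to 4, 153, 100.2, 224 and 46.9 CPM in HxD 1 to 4, and 58.4, 79.0, 83.4 and 57.1 CPM in WT 1 to 4. All KO libraries lay below all WT libraries, and 3 of 4 HxD libraries lay above WT, whereas HxD 4 lay within the KO range. The log2 fold change was -1.90 ± 0.42 in KO against HxD (95% interval -2.83 to -0.98, adjusted p = 0.075), -0.99 ± 0.41 in KO against WT (adjusted p = 0.480) and 0.92 ± 0.40 in HxD against WT (adjusted p = 0.999). The call in KO against HxD depended on tool and library. The DESeq2 Wald test called it (adjusted p = 3.5e-04), as did edgeR without HxD 4 (adjusted p = 0.0082), while limma-voom gave 0.25 and edgeR without HxD 3 gave 0.189. In HxD against WT the log2 fold change was 0.52 without HxD 3. There the difference of mean log2 levels was 1.40 between libraries 1 and 3 of each genotype and 0.03 between libraries 2 and 4.

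Penk followed the striatal markers of the same library, a list that does not contain it. The enkephalin precursor is itself abundant in the striatum, so the list is not independent of Penk. The score correlations were added after the values were seen. The striatal score, a median over the 10 tested markers of log2 CPM centred on all libraries, was -0.02, -0.81, -0.67 and -1.07 in KO 1 to 4, 0.78, 0.66, 2.25 and -1.25 in HxD 1 to 4, and -0.07, -0.32, 1.29 and -0.24 in WT 1 to 4. Over the 12 libraries Penk gave r = 0.861 and rho = 0.853 (permutation p = 3.9e-04 and 8.1e-04, adjusted over 58 relations 0.0226 and 0.0278). The relation kept r = 0.812 without HxD 3 and WT 3 and r = 0.858 with genotypes centred. With the score as a covariate, the log2 fold change of Penk was -1.03 in KO against HxD (adjusted p = 0.258), -0.57 in KO against WT and 0.46 in HxD against WT. All 10 markers were themselves lower in KO than in HxD (median log2 fold change -1.88) and than in WT (-0.93). All 10 were higher in HxD than in WT (0.70), and none was called in any comparison. The score thus partly goes with genotype, so refits with it cannot separate genotype from striatal tissue. In these bulk samples, fewer cells of a type and less RNA per cell cannot be told apart.

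Pdyn, the dynorphin precursor, stood at 28.4, 22.7, 25.5 and 22.0 CPM in KO against 40.7, 36.9, 33.8 and 41.5 CPM in WT. All KO libraries again lay below all WT libraries. HxD libraries, at 15.7, 51.5, 40.7 and 24.4 CPM, spanned both groups. Its log2 fold change in KO against WT was -0.63 ± 0.30 (adjusted p = 0.547), and -0.53 with the striatal score as covariate. Across libraries Pdyn did not track the striatal score past the threshold (r = 0.371 and rho = 0.434, permutation p = 0.235 and 0.160, adjusted p = 0.470 and 0.493). Tac1, the substance P precursor that striatal neurons also make, failed the filter, with 85 and 32 counts in HxD 1 and 4, 50 in WT 2 and 0 in the other 9 libraries.

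**Figure D4:**
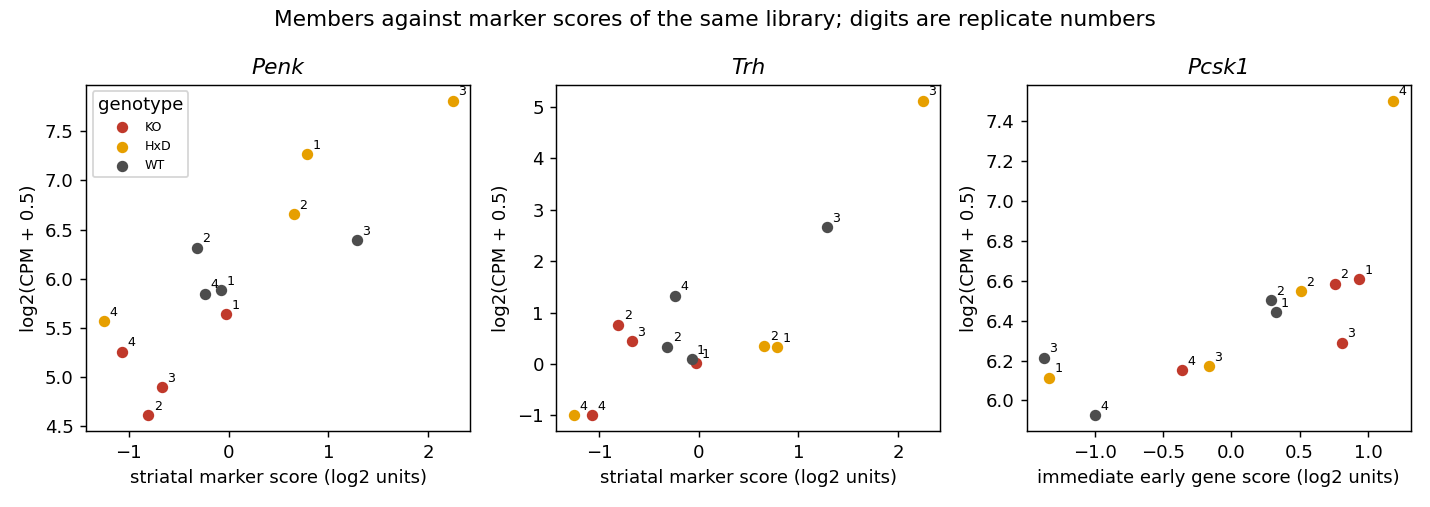
Log2(CPM + 0.5) of Penk and Trh against the striatal marker score, and of Pcsk1 against the immediate early gene score, for 12 libraries coloured by genotype (KO, HxD, WT) and numbered by replicate. Penk rises with the score over its whole range (r = 0.861), Trh mainly through HxD 3 and WT 3, and Pcsk1 is highest in HxD 4.

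Among the precursors typical of cortex, the cholecystokinin gene Cck held 541, 640, 605 and 543 CPM in KO, 537, 676, 405 and 574 in HxD, and 488, 801, 484 and 487 in WT. WT 2 stood apart from the other WT libraries, and the groups overlapped. The 95% interval of its log2 fold change was -0.38 to 0.47 in KO against WT and -0.47 to 0.38 in HxD against WT. Npy, the neuropeptide Y precursor of interneurons, averaged 119 ± 15.8 CPM in KO, 125 ± 37.8 in HxD and 111 ± 23.2 in WT. Crh, the corticotropin-releasing hormone gene, averaged 13.1 ± 1.88, 10.5 ± 4.89 and 10.2 ± 1.96 CPM in KO, HxD and WT. Pnoc, the nociceptin precursor, averaged 10.6 ± 2.25, 10.4 ± 2.56 and 9.66 ± 1.16 CPM in the same order. None of these passed the test.

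HxD 3 carried high values of several scarce precursors, which were picked out after their values were seen. Trh, the thyrotropin-releasing hormone gene, stood at 34.2 CPM there, at 0 in HxD 4 and KO 4, and at 0.514 to 5.83 CPM in the other 9 libraries. Cartpt, which encodes the CART peptides, stood at 15.5 CPM in HxD 3 against 0.683 to 2.21 CPM in the other HxD libraries and 0.857 to 2.31 in WT, with KO at 1.92 to 8.03. Nts, the neurotensin gene, held 2.40, 15.6, 7.59 and 4.78 CPM in KO, 13.7, 4.81, 24.5 and 1.85 in HxD, and 4.91, 0.190, 6.08 and 2.81 in WT, with HxD 3 highest of all. Over 12 libraries Trh followed the striatal score with r = 0.843 (permutation p = 9.3e-04, adjusted p = 0.027), but rho was 0.536 (permutation p = 0.0752, adjusted p = 0.415), and r was 0.453 without HxD 3 and WT 3, so the relation rests on those libraries. For Cartpt, r was 0.442 and rho 0.280 with all libraries (permutation p = 0.148 and 0.379, adjusted p = 0.394 and 0.671), and r was -0.17 without the same pair. The part of neighbouring tissue in these values was not tested.

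The remaining precursors were scarce and showed no ordered groups. Adcyap1, which encodes PACAP, averaged 22.0 ± 7.55 CPM in KO, 29.2 ± 12.0 in HxD and 26.5 ± 13.4 in WT. Grp, the gastrin-releasing peptide gene, averaged 17.1 ± 12.8, 18.8 ± 13.1 and 15.2 ± 4.68 CPM in KO, HxD and WT, and KO 1 and 4 were again below KO 2 and 3, at 7.88 and 4.44 CPM in the first pair and 29.9 and 26.3 CPM in the second. Nppc, the C-type natriuretic peptide gene, averaged 9.11 ± 2.81, 8.25 ± 1.31 and 8.07 ± 1.17 CPM. Nmb, the neuromedin B gene, lay between 0.286 and 5.74 CPM in all libraries. Over the 13 tested precursors the median log2 fold change was 0.17 in HxD against WT, 0.11 in KO against WT and -0.33 in KO against HxD.

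The secreted synaptic organisers gave no call either. Nxph3, a neurexophilin that binds alpha-neurexins, was the most abundant of them per kilobase. It held 61.5, 92.1, 118 and 71.6 CPM in KO, 103, 88.9, 47.7 and 75.9 in HxD, and 85.0, 61.5, 113 and 100.05 in WT, in overlapping ranges. Nxph1 averaged 22.7 ± 6.47 CPM in KO, 25.9 ± 4.15 in HxD and 26.9 ± 6.73 in WT. Cbln1, a cerebellin that links neurexins to glutamate delta receptors, ranged from 15.1 to 31.6 CPM in KO, 4.16 to 31.3 in HxD and 7.90 to 43.3 in WT. Cbln4 ranged from 7.88 to 47.0 CPM in KO, 17.1 to 30.9 in HxD and 13.1 to 54.6 in WT.

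Cbln2 was either at 0 or at 321 counts and more, and was examined for this after its values were seen. It held 0, 0, 0 and 337 estimated counts in KO 1 to 4, 0, 321, 0 and 599 in HxD 1 to 4, and 0, 1084, 0 and 365 in WT 1 to 4. The 0 values thus fell in replicates 1 and 3 of every genotype and also in KO 2. Such a pattern cuts across genotype, and no fold change is given. Of the insulin and relaxin family, Igf1 held 0 to 5 counts in all libraries and Rln1 held 0 in all KO libraries, 14, 0, 0 and 0 in HxD 1 to 4, and 3, 8, 6 and 6 in WT 1 to 4. Both failed the filter and were not tested.

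The wider pathway gave no call in any comparison. Taking HxD against WT first, then KO against WT, then KO against HxD, the numbers with an unadjusted p below 0.05 were 2, 2 and 2 of 30 tested peptide receptors and related binding proteins, 0, 0 and 2 of 12 other precursors, 1, 1 and 1 of 18 other proteases, 2, 7 and 4 of 30 dense-core vesicle genes, and 0, 2 and 3 of 11 partners of cerebellins and neurexophilins. The shares over all genes were 4.05%, 9.48% and 11.6%. Rxfp1, a relaxin-family receptor, averaged 15.6 ± 2.95 CPM in HxD libraries against 26.4 ± 5.98 in WT (log2 fold change -0.76 ± 0.20, adjusted p = 0.262). Vipr2, a receptor of VIP and PACAP, held 0, 4, 0 and 0 estimated counts in KO 1 to 4 against 11, 15, 22 and 14 in WT 1 to 4 (adjusted p = 0.260).

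Of the other precursors, the neurotrophin Bdnf averaged 7.40 ± 5.44 CPM in KO against 23.0 ± 10.9 in HxD (log2 fold change -1.64 ± 0.56, adjusted p = 0.307). Nptx2, a pentraxin that activity induces, averaged 63.1 ± 15.9 CPM in KO against 116 ± 57.2 in HxD (adjusted p = 0.356). The carboxypeptidase Cpd, a relative of Cpe that works in the Golgi, averaged 134 ± 4.14 CPM in KO against 167 ± 27.95 in WT (log2 fold change -0.32 ± 0.10, adjusted p = 0.349). Ece2, an endothelin-converting enzyme, averaged 29.8 ± 10.3 CPM in HxD libraries and 17.0 ± 4.44 CPM in WT (adjusted p = 0.745). Syt7, a calcium sensor of slow vesicle release, averaged 36.5 ± 35.1 CPM in HxD libraries and 6.56 ± 2.98 CPM in WT (adjusted p = 0.136), with 910 estimated counts in HxD 4 against 102 to 204 in the other HxD libraries. Ica1l averaged 55.7 ± 11.7 CPM in HxD libraries and 34.3 ± 5.29 CPM in WT (adjusted p = 0.284). C1ql3, a secreted synaptic organiser related to cerebellins, averaged 168 ± 36.5 CPM in KO against 284 ± 70.4 in HxD (adjusted p = 0.321). Grid1, a glutamate delta receptor, averaged 95.7 ± 6.07 CPM in KO against 119.8 ± 6.15 in WT (log2 fold change -0.32 ± 0.12, adjusted p = 0.429).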

How the data were processed

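Estimated counts per gene symbol for 12 libraries were used as the authors deposited them, without normalization; the values are whole numbers, so rounding changed none. They are read as estimated counts because StringTie is among the tools named and common genes are at 0. Per the submitters' processing notes, the tools were StringTie 2.2.3, STAR 2.7.1a, SAMtools 1.9, Trim Galore 0.6.7 and FastQC, with builds GRCm39 and mm10 named without role. The read assignment and strand setting are not stated there.

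Symbols on several rows (25 symbols, 56 rows) were left out. edgeR 4.0.16 in R 4.3.3 fitted all 12 libraries at once with genotype as the only term, TMM factors, filterByExpr at its minimum count of 10 and a robust quasi-likelihood fit. Contrasts were two-sided, with Benjamini-Hochberg adjustment over 11693 genes. CPM is per summed counts of tested genes times the TMM factor, with 0.5 added before single-library log2 values. Lengths are of the longest GENCODE vM21 transcript (11674 of the tested genes). Permutation tests of correlations used 100000 draws, two-sided, with libraries shuffled across genotypes. The fits were also run on simulated counts with independent libraries and none of the splits described above. That run does not show how the tests behave in these data.

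The genes and lists were chosen with earlier results of these data known. Values in every library are given for genes with an unadjusted p below 0.05, without overlap between 2 genotypes, or highest per kilobase in their role; from each wider list the 2 genes with the smallest p are named. Genes examined after seeing their values are marked so, and the score correlations were added then. Alternatives used DESeq2 1.42.0, limma-voom (limma 3.58.1), other scalings, filters and covariates, and left out each library. Totals limit counting error only.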

Additional observations from a re-analysis of the deposited data

Results flagged for a closer look

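A library stood apart from the other 3 of its genotype, with a gap above Dixon's 95% critical share of the group's range on the log2 scale, in 4 of 87 gene and genotype groups, where chance gives about 4.35. Chga in WT 2 stood at 253 CPM against 217 to 222 in the other WT libraries. Cck in WT 2 stood at 801 CPM against 484 to 488. Grp in WT 2 was low, at 8.28 CPM against 16.4 to 18.1. Cbln2 in KO 4 stood at 57.6 CPM, with the other KO libraries at 0. The first 3 concern WT 2, which at 10915574 counts is the deepest library; the part of depth in them was not tested.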

How the results depend on the processing

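In HxD against WT and KO against WT, 0 members were called under each of the 23 alternatives. In KO against HxD, 1 member, Penk, was called at an adjusted p threshold of 0.1, by the DESeq2 Wald test and without HxD 4; leaving out each library in turn gave 0 to 1. The cause was not tested. Leaving out 1 library moved the members' median log2 fold change between -0.019 and 0.13 in HxD against WT, between -0.034 (without WT 1) and 0.12 in KO against WT, and between -0.11 and -0.0035 in KO against HxD; with the striatal score as covariate the last was 0.036. The 10 fold changes of members with an unadjusted p below 0.05 or no overlap kept their direction in all 22 refits, and all but Penk in KO against HxD (-2.19 to -1.03) stayed on the same side of the threshold. Over all genes, HxD against WT gave 105 calls (172 by the DESeq2 Wald test), KO against HxD 119 (396 by DESeq2) and KO against WT 18 (288 by DESeq2, 0 by limma-voom, 0 with only the 8 libraries compared, 35 without WT 4). Same-number libraries correlated between -0.071 and 0.078 in their deviations, and 4 of 12 matched their own number best. HxD 3 with WT 3 gave the 0.078, also the highest value within a set. In HxD and WT, pairing by number therefore cannot be told from the split of libraries 1 and 3 from 2 and 4. With the replicate number as a block, 0 members were called in each comparison, and 74, 5 and 95 genes in all. With the split of libraries 2 and 4 from 1 and 3 as a term in the 8 HxD and WT libraries, chosen after seeing the data, 0 of 28 members were called in HxD against WT, 1 had an unadjusted p below 0.05, and 84 genes were called in all. The members' median was then 0.040 and Penk stood at 0.76. KO libraries were left out of that fit. Spread between libraries also limits precision: Grp and Cbln4 had wider intervals than the scarcer Nppc.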
